A study of Mus musculus with 35 samples.

Results

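A set of 10 genes of amino acid synthesis and of the ATF4 stress programme was followed in mouse embryonic stem cells (ESCs) with and without *Dnmt1*: *Atf4*, *Ddit3*, *Trib3*, *Chac1*, *Asns*, *Psat1*, *Phgdh*, *Shmt2*, *Aldh18a1* and *Mars*. The genes were taken by symbol, 10 of the 26127 gene rows of the expression table, and all 10 were among the 11594 genes that passed the filter on low values. The 10 genes were chosen by their KO against WT values in these same libraries, so every KO minus WT value of them is given as a description, with no test. Differences between WT days use WT values that also entered that choice and are described too, and tests are given for other genes of the same pathways, whose lists were drawn up with earlier results of these data known.

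ATF4 is a transcription factor whose mRNA is translated preferentially when the initiation factor eIF2 is phosphorylated, which happens under amino acid shortage, ER stress, haem deficiency or double-stranded RNA. It then switches on genes for making, importing and charging amino acids, together with stress factors such as CHOP and TRIB3 that act back on the pathway. Much of its control is on translation and protein stability, which mRNA levels do not show, and proliferating stem cells use the serine, one-carbon, asparagine and proline branches for growth.

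The samples were total RNA-seq libraries of ESCs, labelled with the background strain E14 (the study's methods describe a C57BL/6 *Dnmt1* loxP/loxP line), grown in serum medium with LIF, with or without feeder cells. In the *Dnmt1* KO groups a Cre recombinase induced by 4-hydroxytamoxifen (4OHT) served to remove the floxed part of *Dnmt1*. WT control and KO cells were collected on days 0, 1, 3, 6, 9, 11, 17 and 25. The day 0 libraries labelled KO still held *Dnmt1* mRNA near the WT level. Each group had 2 libraries, except day 1 with 3, and a single library came from a constitutive *Dicer* KO line made by CRISPR in the same floxed line. The KO is thus a time course of one ESC line, the sources used here do not state whether WT cells also received 4OHT, and although the series text calls the replicates biological, they may share a culture, in which case p-values measure only the spread between these libraries.

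Expression was deposited as RPKM (reads scaled to the length of the gene's exons and to the size of the library). The library sizes that the RPKM values imply were 24.3 to 72.1 M reads (mega-reads), of which 20.7 to 22.4% fell on genes in 20 libraries (days 0 to 9) and 44.7 to 49.9% in 15 (days 11, 17 and 25, the third pair of day 1 and *Dicer* KO), so RPKM is not compared across these 2 sets, and differences are on log2 (RPKM + 0.1) after subtracting each library's median (centred). In the KO libraries *Dnmt1* was at 2.81 RPKM against 18.5 in WT on day 3, 3.22 against 19.7 on day 9, 3.27 against 14.1 on day 11, 4.22 against 16.8 on day 17 and 4.22 against 33.2 on day 25. On day 6 it went against the labels, with 3.31 RPKM in the libraries labelled WT and 20.3 in those labelled KO, so day 6 was kept out of all averages and is given as labelled. All 10 ESC markers were above 1 RPKM in every WT and KO group. In bulk RNA, fewer cells that express a gene and less RNA per cell cannot be told apart.

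The promoters of 4 of the 10 genes are printed because they hold a short motif of the kind that ATF4 dimers are known to bind, and these genes are among those described most closely. The windows run from 250 bases before to 50 bases after the start of the gene, 5′ to 3′ on the gene's strand, from RefSeq on GRCm38.p6. Capitals mark TGATGNAA or TGNNGCAA, each searched on both strands. Both patterns can match the same bases, as they do once in *Chac1*.
*Asns*, chr6:7693160-7693459, minus strand: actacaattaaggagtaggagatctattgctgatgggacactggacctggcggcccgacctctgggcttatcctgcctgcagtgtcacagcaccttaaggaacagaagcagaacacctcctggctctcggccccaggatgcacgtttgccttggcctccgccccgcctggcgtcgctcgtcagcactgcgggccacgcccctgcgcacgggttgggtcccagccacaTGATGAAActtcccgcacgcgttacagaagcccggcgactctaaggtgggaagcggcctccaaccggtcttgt
*Chac1*, chr2:119350992-119351291, plus strand: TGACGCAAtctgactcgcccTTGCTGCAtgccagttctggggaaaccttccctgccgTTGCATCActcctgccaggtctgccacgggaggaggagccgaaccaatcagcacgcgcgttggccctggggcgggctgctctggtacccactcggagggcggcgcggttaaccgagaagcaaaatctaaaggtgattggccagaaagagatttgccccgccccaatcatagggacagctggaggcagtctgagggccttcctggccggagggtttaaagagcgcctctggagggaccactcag
*Trib3*, chr2:152344011-152344310, minus strand: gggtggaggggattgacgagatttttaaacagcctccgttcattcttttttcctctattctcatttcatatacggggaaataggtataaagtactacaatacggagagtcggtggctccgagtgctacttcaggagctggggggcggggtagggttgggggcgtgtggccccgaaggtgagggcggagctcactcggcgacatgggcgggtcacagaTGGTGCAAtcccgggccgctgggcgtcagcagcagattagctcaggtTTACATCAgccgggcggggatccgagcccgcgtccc
*Psat1*, chr19:15925010-15925309, minus strand: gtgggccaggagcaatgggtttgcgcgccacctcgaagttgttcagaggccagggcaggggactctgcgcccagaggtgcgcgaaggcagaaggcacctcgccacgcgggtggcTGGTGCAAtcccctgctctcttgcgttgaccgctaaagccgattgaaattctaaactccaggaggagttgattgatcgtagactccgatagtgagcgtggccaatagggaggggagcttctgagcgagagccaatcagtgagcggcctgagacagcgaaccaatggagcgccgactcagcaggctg

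*Asns* carries TGATGAAA at bases −23 to −16 from its start, and *Chac1* has TTGCATCA at −193 to −186, a match of both patterns on the opposite strand, and TGACGCAA at −250 to −243. *Trib3* and *Psat1* share the word TGGTGCAA, at −33 to −26 and −136 to −129. TGATGNAA was found in the windows of *Asns*, *Chac1* and *Trib3* and in 3.97% of the 32851 promoter windows of the table, and TGNNGCAA in those of *Chac1*, *Trib3* and *Psat1* and in 11.4% of all windows. All 10 genes matched the table, with 11 windows since *Psat1* has 2, and the other 7 held neither pattern, which says only that these letters are not in those windows. The patterns were picked with the gene list known, and a match is a description of the sequence, not a binding site.

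On day 0 *Dnmt1* was not yet lower in KO. The WT and KO libraries of that day overlapped for all 10 genes, with a median KO minus WT of 0.03 on the log2 scale. Of all genes tested, 17.15% were lower and 20.48% higher in both KO libraries of day 0. On day 1 they overlapped for 5 genes, 3 were lower and 2 higher in both KO libraries, and the differences ran from −0.13 to 0.37, where 25.5% of all genes tested were lower and 19.4% higher in both KO libraries. From day 3 to day 17 most were lower in KO. After centring, both KO libraries lay below both WT libraries for 9 of 10 on day 3, 7 on day 9, 8 on day 11 and 9 on day 17, where the same held for 37.3%, 38.3%, 29.8% and 41.0% of all genes tested. The median over the 10 genes was −0.42, −0.40, −0.42 and −0.82 on these days, against −0.03, −0.02, −0.05 and −0.09 over all genes. On day 25 the picture turned: 6 of 10 were higher in both KO libraries, 2 were lower and 2 overlapped, with a median of 0.26 against 0.13 over all genes, 49.9% of which were higher and 33.4% lower in both KO libraries.

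**Figure D1:**
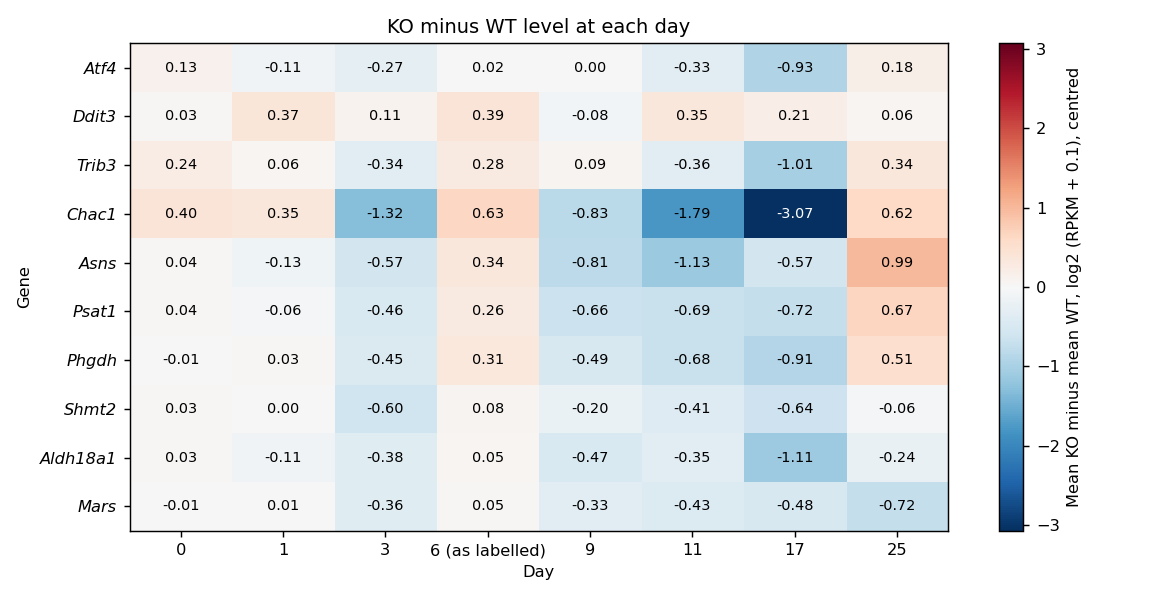
Difference between the mean of the KO and the mean of the WT libraries (n = 2 each, the third pair of day 1 left out) for each of the 10 genes (rows) on each day (columns), in log2 (RPKM + 0.1) after centring, with blue for lower and red for higher in KO. From day 3 to day 17 the blocks of *Chac1*, *Asns*, *Psat1* and *Phgdh* are blue, apart from day 6, whose labels *Dnmt1* contradicts, and on day 25 these rows are red while *Aldh18a1* and *Mars* stay blue.

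*Asns* makes asparagine from aspartate and glutamine (chr6:7625169-7643254 on NCBIM37, minus strand). On day 3 its level was 46.3 and 50.6 RPKM in WT and 35.1 and 32.5 in KO, and on day 9 it was 30.4 and 31.5 in WT and 16.3 and 20.3 in KO. On day 11 WT libraries reached 107 and 120 RPKM and KO libraries 63.4 and 49.3. On none of these days did the groups overlap, nor did they on day 17 (40.7 and 37.0 in WT, 30.1 and 29.2 in KO). On day 25 the order was reversed, with 24.5 and 24.7 RPKM in WT and 49.8 and 48.1 in KO. The centred differences were −0.57, −0.81, −1.13 and −0.57 on days 3, 9, 11 and 17 and 0.99 on day 25. The pooled SD of 2 libraries per group was 0.166 on day 9, 0.217 on day 11 and 0.0052 on day 25. Between days 11 and 25 the mean of the WT libraries went from 113 to 24.6 RPKM and that of the KO libraries from 56.4 to 49.0.

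*Phgdh* and *Psat1* catalyse consecutive steps of serine synthesis from a glycolytic intermediate (*Phgdh*: chr3:98117093-98143913, *Psat1*: chr19:15979168-16021827, both minus strand on NCBIM37). *Phgdh* was at 18.6 and 18.3 RPKM in WT and 13.2 and 13.9 in KO on day 9, at 44.7 and 38.9 in WT and 24.5 and 25.8 in KO on day 17, and at 19.8 and 22.5 in WT and 29.6 and 30.4 in KO on day 25. For *Psat1* the day 9 libraries gave 23.2 and 21.1 RPKM in WT and 14.1 and 14.7 in KO, and those of day 25 gave 22.4 and 22.02 in WT and 37.1 and 33.6 in KO. The genotypes were separate on each of these days, KO lower up to day 17 and higher on day 25. KO minus WT was −0.45, −0.49, −0.68 and −0.91 for *Phgdh* and −0.46, −0.66, −0.69 and −0.72 for *Psat1* on days 3, 9, 11 and 17. On day 25 it was 0.51 (pooled SD 0.097, n = 2 per group) for *Phgdh* and 0.67 (pooled SD 0.054, n = 2 per group) for *Psat1*.

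*Shmt2*, the mitochondrial enzyme that passes a carbon of serine to folate (chr10:126954195-126959491, minus strand), was lower in both KO libraries on days 3, 9, 11 and 17 and overlapped with WT on day 25. Day 3 libraries held 13.1 and 14.5 RPKM in WT and 9.06 and 9.72 in KO, a centred difference of −0.60. The differences on days 9, 11 and 17 were −0.20, −0.41 and −0.64. On day 25 the groups overlapped, with 21.4 and 19.7 RPKM in WT, 19.7 and 19.6 in KO, and a difference of −0.06.

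*Aldh18a1*, which starts proline synthesis from glutamate (chr19:40624747-40662953, minus strand), and *Mars*, the cytosolic methionyl-tRNA synthetase (chr10:126733277-126748842, minus strand), had a lower mean in KO on days 3, 9, 11, 17 and 25. *Aldh18a1* was at 9.89 and 9.91 RPKM in WT and 7.81 and 7.88 in KO on day 3, at 6.39 and 7.77 in WT and 3.82 and 3.48 in KO on day 17, and at 6.32 and 6.41 in WT and 5.07 and 5.68 in KO on day 25. Its differences were −0.38, −0.47, −0.35, −1.11 and −0.24 on days 3, 9, 11, 17 and 25. On day 11 its groups overlapped, since the KO libraries held 6.52 and 10.2 RPKM against 8.68 and 10.7 in WT. *Mars* was at 18.8 and 19.0 RPKM in WT and 15.4 and 15.1 in KO on day 3, and its day 11 KO libraries also stood apart, at 12.5 and 19.4 RPKM against 19.7 and 19.2 in WT, so that KO lay below both WT libraries only after centring. Unlike the enzymes of serine and asparagine synthesis, *Mars* showed its widest gap on day 25, with 20.3 and 20.4 RPKM in WT and 12.98 and 11.6 in KO (KO minus WT −0.72, pooled SD 0.061, n = 2 per group). The other days gave −0.36, −0.33, −0.43 and −0.48.

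*Chac1*, a glutathione-degrading enzyme and ATF4 target (chr2:119176965-119180117, plus strand), had the widest range of the 10 genes. WT libraries gave 6.75 and 8.06 RPKM on day 3, 2.69 and 2.21 on day 9, 6.03 and 7.81 on day 11, 7.20 and 6.72 on day 17 and 1.46 and 1.17 on day 25. The KO libraries of the same days gave 3.02 and 2.99, 1.25 and 1.504, 1.73 and 2.48, 0.869 and 0.839, and 2.11 and 2.01 RPKM. KO was thus below WT on 4 of these days, at 0.401, 0.562, 0.289 and 0.119 times the WT level on the centred scale, and above it at 1.54 times on day 25. The same differences were −1.32, −0.83, −1.79, −3.07 and 0.62 in log2. The day 17 KO libraries held only 44 and 42 reads of *Chac1*. Without centring, the day 17 difference was −2.89 with 0.1 added to RPKM and −2.10 with 1 added. On day 9 these were −0.79 and −0.54.

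*Atf4* itself (chr15:80085614-80087970, plus strand) was at 54.2 and 57.3 RPKM in WT and 46.8 and 48.6 in KO on day 3, and on day 9 the groups overlapped once centred, at 43.8 and 43.4 in WT and 44.2 and 45.8 in KO. The day 17 libraries held 161 and 150 RPKM in WT and 92.2 and 93.0 in KO. KO minus WT was −0.27, 0.00, −0.33, −0.93 and 0.18 on days 3, 9, 11, 17 and 25 in log2. On day 9 *Asns*, *Psat1*, *Phgdh* and *Chac1* were thus lower in KO libraries whose *Atf4* mRNA overlapped with WT. *Trib3*, a pseudokinase that holds back ATF4 activity (chr2:152163158-152169768, minus strand), had differences of −0.34, 0.09, −0.36, −1.01 and 0.34. On day 17 it was at 7.15 and 6.33 RPKM in WT and 3.68 and 3.82 in KO.

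*Ddit3*, which encodes the pro-apoptotic factor CHOP (chr10:126727830-126733344, plus strand), was higher in both KO libraries on days 3, 11 and 17 and overlapped on days 9 and 25. On day 11 it was at 2.10 and 2.02 RPKM in WT and 2.88 and 2.87 in KO, and on day 25 the replicates of each genotype differed more than the genotypes (1.94 and 1.18 in WT, 1.98 and 1.26 in KO). Its differences were 0.11, −0.08, 0.35, 0.21 and 0.06. *Ddit3* and *Mars* overlap by 68 bases on opposite strands, and whether the gene reads were counted by strand was not stated in the sources used here.

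**Figure D2:**
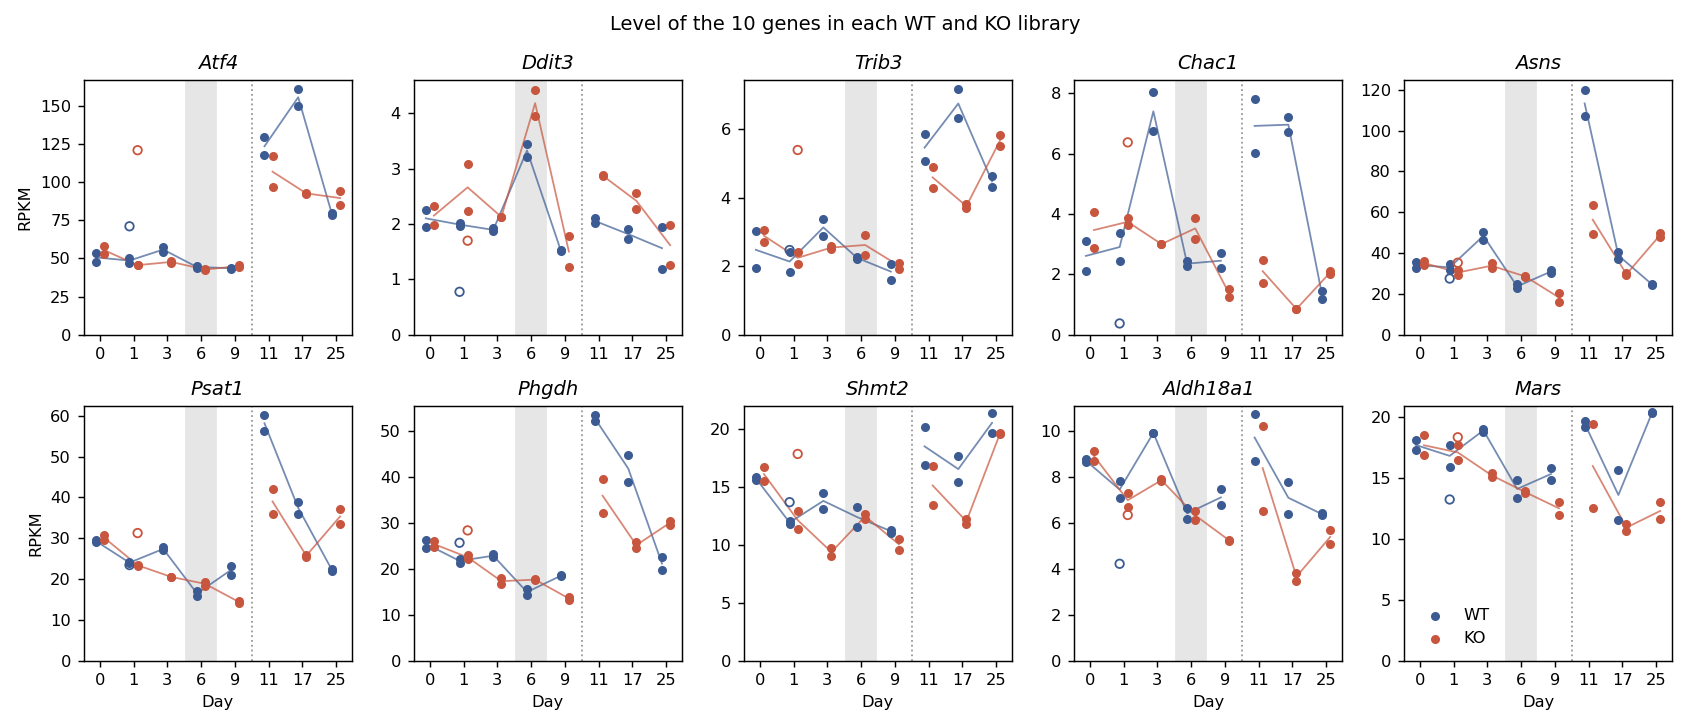
RPKM (linear axis from 0) of each of the 10 genes against day, with a filled point for each library of the main comparison, a line through the mean of 2 libraries, and open points for the third pair of day 1. Blue is WT and red is KO, the grey band marks day 6, shown as labelled, and the dotted line separates days whose libraries had 20.7 to 22.4% of reads on genes from later days with 44.7 to 49.9%, across which levels are not comparable. WT *Asns* stands at 107 and 120 RPKM on day 11 and below both KO libraries on day 25.

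As labelled, the day 6 libraries ran the other way from days 3 and 9: 7 of 10 genes were higher in both libraries labelled KO and none was lower, with a median difference of 0.27, where 38.1% of all genes tested were higher in both. *Asns* was at 22.7 and 24.7 RPKM in the libraries labelled WT and 28.5 and 28.6 in those labelled KO, and *Chac1* at 2.43 and 2.28 against 3.18 and 3.87. These are also the libraries in which *Dnmt1* was high where the label says KO. Without centring, *Atf4*, *Aldh18a1* and *Mars* changed sign on day 6, and no other member did so on days 3 to 25. The third pair of day 1, 1 library per genotype with the higher share of gene reads, also stood apart: *Chac1* was at 0.375 RPKM in WT and 6.37 in KO, *Trib3* at 2.47 and 5.38, and *Atf4* at 71.0 and 121, whereas *Psat1* was at 23.4 and 31.3. *Dnmt1* was at 19.5 RPKM in the WT library of this pair and 8.13 in its KO library. In the other day 1 libraries it was at 17.9 and 18.1 in WT and 2.86 and 3.04 in KO.

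Markers of other cells moved with the genotype too. Of 13 fibroblast markers, which feeder cells would carry, 9 passed the filter. All 9 had a higher mean in KO on days 3 and 9, 6 on day 11, 7 on day 17 and 3 on day 25, and in KO 1 of the 13, *Lum*, was at 0 in both libraries of day 11 and none on days 3, 9, 17 and 25. In WT *Postn* and *Lum* were at 0 in both libraries of days 11 and 17, and *Dcn* in those of day 25. The summed level of the 13 was 22.4 to 23.5 RPKM in WT and 41.8 to 42.7 in KO on day 3, 20.8 to 23.8 against 44.5 to 50.4 on day 9, 4.22 to 4.68 against 3.88 to 5.14 on day 11, 6.72 to 7.64 against 37.0 to 37.8 on day 17, and 10.3 to 11.05 against 6.68 to 7.58 on day 25. In both KO libraries 9 of the 13 fibroblast markers were above 1 RPKM on days 3 and 9, but only 2 on day 17. The median KO minus WT of the 9 tested was 0.67, 0.98 and 0.22 on days 3, 9 and 17. ESC markers were lower in KO for 8, 8, 9 and 6 of 10 genes on days 3, 9, 11 and 17 and higher for 8 of 10 on day 25. Their part in the values of the 10 genes was not tested.

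Among the WT libraries alone, the levels of the 10 genes also differed between days. The WT values of each day are one side of the KO against WT values that chose the genes, so the differences are given with their standard errors as a description, and nothing is read from how many pass a threshold. From day 11 to day 25 in WT, 8 of 10 genes were lower and none higher at a limma adjusted p below 0.05, where the same threshold was passed by 38.8% of all genes tested downwards and 30.4% upwards. The median difference was −0.71 over the 10 genes and −0.08 over all genes. *Asns* went from 107 and 120 RPKM to 24.5 and 24.7, a difference of −2.29 (SE 0.106, n = 2 per day). *Chac1* went from 6.03 and 7.81 RPKM to 1.46 and 1.17, a difference of −2.40 (SE 0.191, n = 2 per day). None of the 4 libraries overlapped between the days for either gene. *Psat1* differed by −1.48 (SE 0.0737), *Phgdh* by −1.42 (SE 0.0903), *Atf4* by −0.73 (SE 0.0853) and *Aldh18a1* by −0.69 (SE 0.126). *Ddit3* differed by −0.51 (SE 0.196) and *Trib3* by −0.37 (SE 0.159). The *Ddit3* difference was −0.46 without WT day 11 replicate 1, −0.56 without WT day 11 replicate 2 and −0.17 without WT day 25 replicate 2. Leaving out any 1 of the 4 WT libraries gave −0.45 to −0.29 for *Trib3*. *Shmt2* (0.06, SE 0.0942) and *Mars* (−0.03, SE 0.126) differed by less than their standard errors.

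These WT libraries of day 25 are the ones that the KO libraries of that day were set against. ESC markers, summed and divided by the library median, were also lower in WT on day 25, at 244 to 249 against 423 to 486 on day 11, and in KO they were 307 to 319 on day 25 and 303 to 407 on day 11. Their part in the WT change was not tested.

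From day 0 to day 9 in WT the differences of the 10 genes had a median of −0.39, against −0.04 over all genes. At a limma adjusted p below 0.05, 4 of the 10 genes were lower and none higher, where 10.6% of all genes tested were lower and 6.09% higher. *Shmt2* differed by −0.54 (SE 0.0942), *Phgdh* by −0.51 (SE 0.0903), *Psat1* by −0.46 (SE 0.0737) and *Atf4* by −0.27 (SE 0.0853), and *Asns* gave −0.20 (SE 0.106) and *Chac1* −0.12 (SE 0.191). The count was 0 with the third day 1 pair in the fit, where 131 of all genes tested were called in either direction. It was 7 with only the groups compared, where 2815 were called, and 1933 were called in the main fit. The *Atf4* difference was −0.19 without WT day 0 replicate 1, −0.28 without WT day 9 replicate 1 and −0.26 without WT day 9 replicate 2. With a pseudocount of 1 it was −0.25, without the filter on low values −0.29, without centring −0.21 and with the third day 1 pair −0.27.

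**Figure D3:**
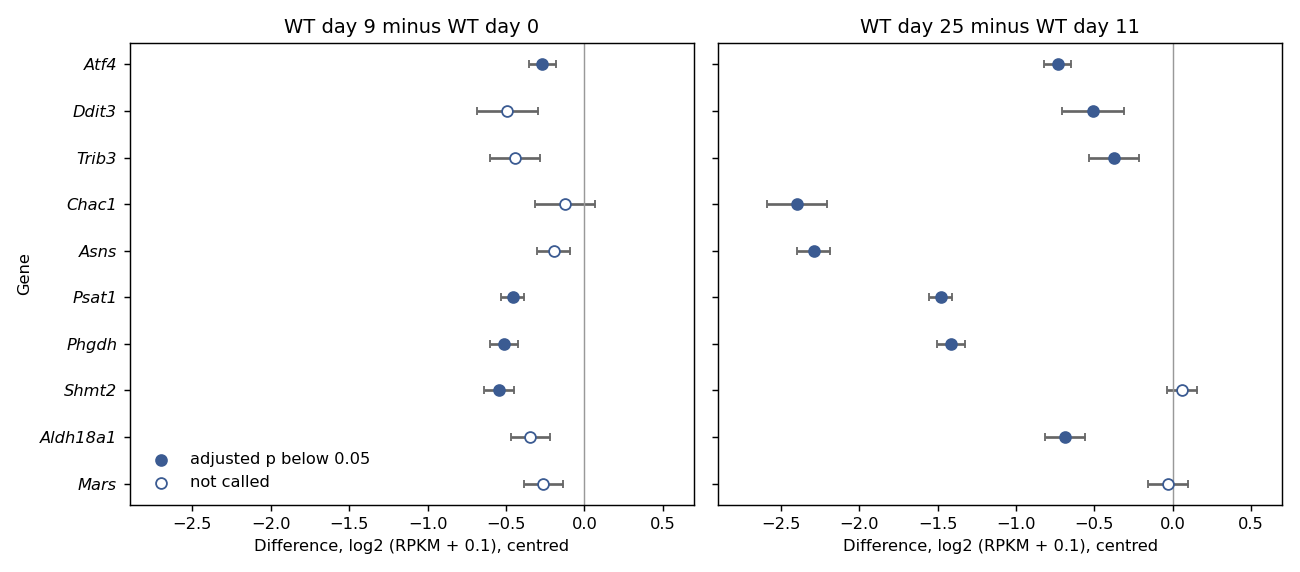
Difference between WT days for each of the 10 genes in log2 (RPKM + 0.1) after centring, with the standard error from limma as bars (n = 2 libraries per day), for day 9 minus day 0 (left) and day 25 minus day 11 (right). Filled points passed an adjusted p of 0.05, shown as a description because WT values entered the choice of the genes. *Chac1* and *Asns* lie farthest left in the right panel, at −2.40 and −2.29.

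Other genes of the same pathways were taken from 6 lists of 93 genes, 87 of which were tested in KO against WT. Over the mean of days 3, 9, 11, 17 and 25, 46 were lower in KO and 17 higher (limma, adjusted p below 0.05), where 31.7% of all genes tested were lower and 26.5% higher. The list median was −0.11 against −0.02 over all genes. Without centring the split was 37 lower and 26 higher, and with day 6 added as labelled 44 and 15. All genes called in either direction were 6752 in the main fit, 6778 without centring and 5529 with day 6. On day 9 alone 26 were lower and 11 higher, with 14.2% and 14% of all genes. The split was only 6 and 2 with the third day 1 pair in the fit, and 21 and 14 without centring. All genes called on day 9 went from 3271 in the main fit to 948 with that pair, and were 3245 without centring.

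The aminoacyl-tRNA synthetases, the enzymes that charge tRNAs and to which *Mars* belongs, gave 14 of 19 lower and 0 higher over the mean of days (median −0.22), and 11 lower and 0 higher on day 9. *Yars*, the tyrosyl enzyme, was lower by 0.47 over the mean of days (−0.47, SE 0.0313, limma adjusted p = 4.975e-11), and on day 9 was at 6.07 and 6.08 RPKM in WT and 4.20 and 4.65 in KO. *Cars*, the cysteinyl enzyme, was at 10.96 and 10.95 RPKM in WT and 7.53 and 7.90 in KO on day 9 (−0.54, SE 0.077, limma adjusted p = 2.059e-05). Amino acid and one-carbon enzymes gave 9 of 16 lower and 1 higher over the mean of days, and 9 and 2 on day 9. *Cth*, which makes cysteine from cystathionine, was lower by the most over the mean of days (−0.84, SE 0.0443, limma adjusted p = 7.67e-13). *Pycr1*, which finishes the proline synthesis that *Aldh18a1* begins, was at 2.13 and 2.49 RPKM in WT and 1.11 and 1.19 in KO on day 9 (−0.98, SE 0.11, limma adjusted p = 9.105e-07). *Psph*, the last enzyme of serine synthesis, gave −0.58 on day 9 (SE 0.126, limma adjusted p = 0.00159), so that all 3 steps of that route were lower in KO that day, 2 of them genes chosen for it.

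Amino acid transporters gave 8 of 9 lower and 1 higher over the mean of days, with a median of −0.47, and 3 and 1 on day 9. *Slc1a5*, a carrier of glutamine and other neutral amino acids, was at 9.85 and 10.3 RPKM in WT and 5.37 and 5.63 in KO on day 9 (−0.90, SE 0.082, limma adjusted p = 4.314e-08), and *Slc7a6* was the one that was higher (0.42 over the mean of days, SE 0.0503, limma adjusted p = 4.083e-07). Other ATF4 targets gave 7 of 12 lower and 2 higher over the mean of days, and 2 and 1 on day 9. *Nupr1*, a small stress-induced chromatin protein, was lower (−0.70 over the mean of days, SE 0.0648, limma adjusted p = 7.392e-09) and *Cebpb*, a bZIP partner of the ATF4 family, higher (0.45, SE 0.0598, limma adjusted p = 1.714e-06).

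The kinases and subunits that control eIF2, upstream of ATF4, gave 5 of 12 lower and 2 higher over the mean of days and 0 lower and 2 higher on day 9, with medians of −0.02 and 0.00. *Eif2ak3*, the ER stress kinase PERK, was among the higher genes (0.39 over the mean of days, SE 0.0455, limma adjusted p = 2.46e-07). ER chaperones and ER stress genes gave 3 of 19 lower and 11 higher over the mean of days, and 1 and 5 on day 9. *Xbp1*, the transcription factor of the IRE1 branch of the ER stress response, was at 4.69 and 4.86 RPKM in WT and 9.91 and 9.48 in KO on day 9 (0.97, SE 0.0866, limma adjusted p = 3.597e-08) and at 5.69 and 5.67 in WT and 16.1 and 15.0 in KO on day 25. *Herpud1*, an ER-associated degradation gene that ATF4 also induces, was instead lower over the mean of days (−0.34, SE 0.0419, limma adjusted p = 6.52e-07).

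On day 25, 41 of the 87 genes were higher in KO and 25 lower (limma, adjusted p below 0.05), where 39.7% of all genes tested were higher and 26.2% lower and the median of all genes was 0.13, so values on this day are read against that shift. With the third day 1 pair in the fit the counts were 26 and 14, while all genes called went from 7642 to 5057. Synthetases gave 9 higher and 5 lower, one-carbon and amino acid enzymes 8 and 4, and other ATF4 targets 6 and 3, while transporters gave 2 and 5 with a median of −0.73. *Dars*, the aspartyl enzyme, was at 35.4 and 34.7 RPKM in WT and 81.3 and 80.6 in KO (1.21, SE 0.12, limma adjusted p = 4.166e-08), and *Vars*, the valyl enzyme, at 12.0 and 11.5 in WT and 4.66 and 4.46 in KO (−1.34, SE 0.205, adjusted p = 9.704e-06). *Slc7a5*, the large neutral amino acid carrier, was at 28.0 and 25.9 RPKM in WT and 9.07 and 7.87 in KO (−1.65, SE 0.27, limma adjusted p = 2.088e-05), and *Sesn2*, an ATF4-induced inhibitor of mTORC1, at 14.9 and 14.4 in WT and 5.79 and 5.18 in KO (−1.40, SE 0.14, adjusted p = 4.953e-08).

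**Figure D4:**
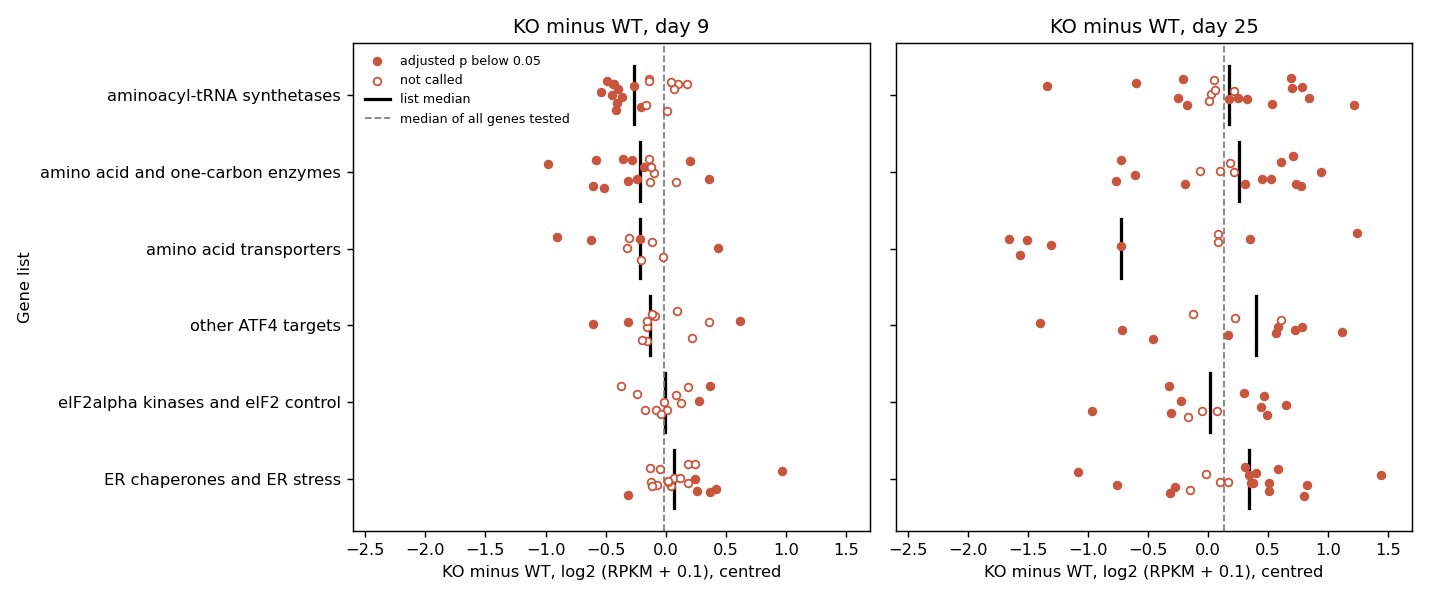
KO minus WT of each of the 87 other pathway genes on day 9 (left) and day 25 (right), in log2 (RPKM + 0.1) after centring, grouped into 6 lists, with points spread vertically for legibility only. Filled points passed a limma adjusted p of 0.05, black bars are list medians and the dashed line is the median of all 11594 genes tested (−0.02 and 0.13). The synthetase median lies at −0.26 on day 9 and 0.18 on day 25, and that of the transporters at −0.22 and −0.73.

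The change between these days was tested directly for the other pathway genes. KO minus WT was higher on day 25 than on day 9 for 36 of 87 and lower for 13 (limma interaction contrast, adjusted p below 0.05), where 29.4% and 20.4% of all genes tested moved so. With the third day 1 pair in the fit the counts were 17 and 6, while all genes called went from 5781 to 2828. Among synthetases 11 of 19 were higher and 1 lower, and among amino acid and one-carbon enzymes 10 of 16 and 2. The genes named next were taken for their low values on day 9, so their differences between the days are descriptions. *Pycr1* went from −0.98 to 0.70 (difference 1.69, SE 0.156), *Psph* from −0.58 to 0.31 (difference 0.89, SE 0.179) and *Nupr1* from −0.60 to 0.58 (difference 1.18, SE 0.205). *Cth* and *Slc1a5* were below 0 on both days, at −0.60 and −0.90 on day 9 and −0.77 and −0.73 on day 25.

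Across the 32 WT and KO libraries of the main fit, with each gene's mean in the low-share and high-share libraries subtracted, Pearson r between pairs of the 10 genes ran from −0.04 to 0.97 with a median of 0.55 over 45 pairs. *Asns*, *Psat1*, *Phgdh* and *Chac1* gave 0.74 to 0.97 over 6 pairs. The gene most like each member in all 11594 was *Pycr1* for *Asns* (r = 0.93), *Phgdh* for *Psat1* (0.97), the seryl-tRNA synthetase gene *Sars* for *Phgdh* (0.98), *Cars* for *Aldh18a1* (0.89) and *Chac1* for *Trib3* (0.80). It was *Nhedc1* for *Atf4* (0.90), *2700007P21Rik* for *Chac1* (0.91), *Aldh2* for *Mars* (0.89), *Rpap2* for *Shmt2* (0.85) and *E130306D19Rik* for *Ddit3* (0.77). The points share genotypes, days and replicates, so these are descriptions of the time course and carry no test.

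The *Dicer* KO library, which stands alone, is set against the 7 WT libraries of the same share of gene reads. *Atf4* was at 49.9 RPKM against 71.0 to 161, *Asns* at 20.7 against 24.5 to 120, and *Phgdh* at 18.8 against 19.8 to 53.5, and after centring these, *Trib3*, *Psat1* and *Aldh18a1* lay below all 7. *Ddit3* lay above all 7, at 4.44 RPKM against 0.776 to 2.10, while *Shmt2*, *Chac1* and *Mars* were within the WT range. Without the WT library of day 1, which stood apart, *Chac1* (0.924 RPKM against 1.17 to 7.81) and, after centring, *Shmt2* also lay below the other 6, and the positions of the rest were the same. In the *Dicer* KO library the 13 fibroblast markers summed to 295 RPKM. The sum was 14.6 in the WT library of day 1 with the same share of gene reads and at most 11.05 in those of days 11 to 25. The part of other cells in the *Dicer* KO values was not tested. How often genes in general lay outside the WT range in this library is not given. The positions of the members are therefore a description and cannot be told apart from those of other genes.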

How the data were processed

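The 35 libraries (17 WT, 17 KO and 1 *Dicer* KO) were total RNA-seq of ESCs, and per the study's methods they were stranded. According to the submitters' processing notes reads were trimmed with Trim Galore (version 0.3.5) and aligned with TopHat2 (version 2.0.11), and coordinates are those of NCBIM37. The authors deposited 1 table of RPKM values per gene and library, on a linear scale, although the methods speak of log2 RPM. Steps of 1 read could be read from the low values, and 99.5 to 99.7% of values came out as whole reads (within 0.1 of a read, up to 20 reads), which gave 5.20 to 18.0 M (mega-) gene reads per library.

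Genes above 1 RPKM in at least 2 of 32 libraries were kept. Log2 (RPKM + 0.1) was centred on each library's median and fitted in 1 model over the WT and KO groups with limma (version 3.58.1, R 4.3.3, intensity trend), with p-values adjusted by the Benjamini-Hochberg method over all 11594 genes. The third day 1 pair and *Dicer* KO were left out of the fit, and day 6 of averages over days. Tables and figures were made with Python 3.11.15, numpy 2.4.6, pandas 2.3.3 and matplotlib 3.10.9, and the code was tested on simulated data. The 10 genes, the pathway lists and the motifs were chosen with earlier results of these data known. All members and *Dnmt1* could be named, from each pathway list up to 3 called genes with the largest rise and 3 with the largest fall per KO comparison, and the gene most like each member. A single gene that the rule allowed is not reported here by name and stayed in the fit and the counts. *Psph*, *Pycr1*, *Cth*, *Slc1a5* and *Nupr1* were followed from day 9 to day 25 as genes named by that rule on day 9. The alternatives were another pseudocount (0.01 or 1), no filter, no centring, voom on the recovered reads, the third day 1 pair, only the groups compared, other sets of days, the replicate block and leaving out each library in turn.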

Additional observations from a re-analysis of the deposited data

Results flagged for a closer look

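For 6 of the 10 genes every KO library lay below every WT library on day 17 and above on day 25, so that KO minus WT turned between these days. The same was seen in 19.6% of all genes tested. On day 25 it was 0.9924 for *Asns*, 0.6704 for *Psat1*, 0.6219 for *Chac1*, 0.5123 for *Phgdh*, 0.3406 for *Trib3* and 0.1825 for *Atf4*, in log2 after centring. The turn of these 6 genes was not tested, since they were chosen on KO against WT values. Of the 87 other pathway genes, 49 had a KO minus WT that differed between days 25 and 9 by limma's interaction contrast. On day 25 it was higher for 36 of them and lower for 13, where 29.4% of all genes tested were higher and 20.4% lower.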

How the results depend on the processing

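The third day 1 pair moved most counts. With it in the fit, other pathway genes called in KO against WT went from 37 to 8 on day 9. They went from 66 to 40 on day 25 and from 49 to 23 between days 25 and 9. Over all genes the calls in these comparisons went from 3271 to 948, from 7642 to 5057 and from 5781 to 2828. Members called went from 4 to 0 in WT day 9 minus day 0, where all genes called went from 1933 to 131. In WT day 25 minus day 11 members called went from 8 to 5, where all genes called went from 8023 to 5965. Day 1 is in none of these comparisons. In WT day 9 minus day 0, *Phgdh* differed by −0.51, *Shmt2* by −0.54, *Psat1* by −0.46 and *Atf4* by −0.27 both with and without this pair. These 4 differences thus stayed the same while the calls changed. With only the groups compared, the members called in WT day 9 minus day 0 were 7, and all genes called were 2815. Leaving out 1 library gave 58 to 68 of the other pathway genes over the mean of days, 25 to 42 on day 9, 55 to 71 on day 25, 42 to 52 between days 25 and 9, and 6 to 8 members in WT day 25 minus day 11. Without the filter on low values, which also moves the centring, the other pathway genes split into 9 higher and 61 lower over the mean of days, 3 and 34 on day 9, and 47 and 9 between days 25 and 9. Over days 3 and 9 alone, *Pdia3* was at 0.27 and *Slc7a1* at 0.037, opposite to their mean over 5 days. Over days 3, 9, 11 and 17, an alternative added after seeing the data like the contrast between days 25 and 9, *Farsb* was at −0.15, *Dars* at −0.24, *Glul* at −0.13 and *Pdia3* at 0.15, again opposite, and 48 genes were lower and 10 higher. The cause of these changes was not tested.

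Replicate numbers were shared by the groups. Deviations of same-numbered WT and KO libraries correlated at −0.15 to 0.26 over the 8 days, with the highest value on day 11. With 2 libraries per group, these correlations cannot decide whether the numbers pair the samples. With the replicate block 63, 30 and 66 other pathway genes were called over the mean of days, on day 9 and on day 25, 46 between days 25 and 9, and 4 and 8 members in the WT comparisons.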
